A study of Mus musculus with 3 samples.

Results

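The cadherin and protocadherin genes of the mouse were followed through the nuclei of the dorsal root ganglion (DRG), the cluster of sensory neurons and their glia beside the spinal cord. Members were all genes of the count tables whose symbol is Cdh followed by a number or begins with Pcdh, without antisense transcripts and pseudogenes. This gave 92 of 32227 genes, of which 87 held 100 or more unique molecular identifiers (UMIs, tags that each count 1 captured transcript) in the kept nuclei and are reported. Cdh26 with 106 UMIs and Pcdhb8 with 110 lay just above that minimum, and Pcdh12 with 91 and Cdh17 with 73 just below it. The other genes below it were Cdh16 with 42 UMIs, Pcdh20 with 29 and Pcdhb1 with 0. The members comprised 23 cadherins (1160812 UMIs), 12 protocadherins that stand alone in the genome (549178 UMIs) and the 3 gene clusters Pcdha (14 genes, 62322 UMIs), Pcdhb (22 genes, 15851 UMIs) and Pcdhg (21 genes, 46737 UMIs).

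Cadherins are calcium-dependent adhesion molecules that join cells by binding, mostly, the same cadherin on the neighbouring cell. Classical cadherins such as Cdh1 (E-cadherin), Cdh2 (N-cadherin) and Cdh5 (VE-cadherin) are tied to actin through catenins, and the type II cadherins, among them Cdh6, Cdh8, Cdh9, Cdh10, Cdh11, Cdh12, Cdh18, Cdh19 and Cdh20, are known for expression restricted to particular neurons or glia. Delta protocadherins, such as Pcdh7, Pcdh9, Pcdh10, Pcdh11x, Pcdh17 and Pcdh19, are adhesion molecules of neural circuits, and of the clustered protocadherins each neuron uses a choice, which gives it an identity on its surface.

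The study is on endothelin B receptor signalling and axon regeneration, and its single-nucleus part asked how satellite glial cells (SGCs), which wrap each soma, differ with age. Nuclei came from L3 to L5 DRG of C57BL/6 mice, frozen before isolation, with 1 library from adult mice (age label 3 months) and 2 from aged mice (age label 21 months), here adult replicate 1, aged replicate 1 and aged replicate 2. No treatment or allele is given for any of them. The study calls the libraries biological replicates, and how many mice went into each is not given in the sources used here. The p-values therefore rest on these 3 libraries. Those of the age tests use the spread between the 2 aged libraries. Tests between classes or subtypes, and of class by age, use the spread left once differences between libraries are fitted as a block. All tests estimate the spread in part over all genes together. The labels give every library as male, whereas the methods name females at the older age or both sexes, and the series text has a lower age for the aged mice. Xist, transcribed from the inactive X of females, was at 1422, 854 and 936 CPM (UMIs per 1000000 UMIs of the classed nuclei) in these libraries, and the Y-linked Ddx3y was at 20.1, 12.7 and 7.54 CPM. Other Y-linked genes were lower, Uty at 2.70, 1.02 and 0.725 CPM and Kdm5d at 1.00, 0.601 and 0.617 CPM. Eif2s3y had 9, 2 and 1 UMIs. The Xist counts go against a label of male in all 3 libraries. Barcodes with more than 1000 genes were taken as nuclei, 11518, 5130 and 2611 in these libraries, which held 167664164, 95647106 and 69045987 UMIs in all.

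Nuclei were clustered without the members, and the clusters were named from markers of other genes. The classes were SGC-like, Schwann cell-like without myelin (NMSC-like) and with it (MSC-like), neuron-like, fibroblast-like, endothelial-like, myeloid-like, lymphocyte-like, cycling-like and mural-like. The lymphocyte-like cluster also reached 4 of 6 SGC markers, and genes outside its marker list were among those that led the cycling-like cluster, so both are used here only as part of the comparison. SGC-like nuclei numbered 3827, 610 and 304 and neuron-like nuclei 4595, 2488 and 1308, whereas mural-like nuclei numbered 59, 18 and 3 and are given as values with no test. Levels are counts per 1000000 (CPM), that is the UMIs of a gene per 1000000 UMIs of the class in a library, always in the order adult replicate 1, aged replicate 1, aged replicate 2. Means have their SD over the 3 libraries, and statements on the highest class are over the 9 tested classes.

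Levels of the members were compared between the classes of the DRG. Sums of UMIs per class and library were compared, each class against an average of all others, with the quasi-likelihood test of edgeR and Benjamini-Hochberg adjustment over all genes tested, and a log2 fold change below is from that fit with its SE. Of the 92 members, 54 passed the filter on low counts, and 53 of these were higher in at least 1 class, beside 89% of all genes tested. Most members were called higher in SGC-like nuclei (40, beside 16.7% of all genes, with 1 lower beside 18.9%) and many in neuron-like nuclei (28, beside 37.1%, with 10 lower beside 24.8%). Fibroblast-like nuclei had 22 higher members (beside 20.6%) and 10 lower (beside 12.1%), endothelial-like 12 higher (beside 13.8%) and 5 lower (beside 7.14%), NMSC-like 10 higher (beside 10.2%) and 0 lower (beside 7.46%), and MSC-like 4 higher (beside 18%) and 10 lower (beside 14.9%). In myeloid-like nuclei 0 members were higher (beside 29.4%) and 29 lower (beside 18.1%), in lymphocyte-like nuclei 3 higher (beside 12.4%) and 2 lower (beside 5.26%), and in cycling-like nuclei 0 higher (beside 12.1%) and 3 lower (beside 12.6%). The median log2 fold change of the tested members was 0.93 in SGC-like nuclei, beside -0.09 over all genes, 0.69 in neuron-like nuclei, beside 0.14, and -1.34 in myeloid-like nuclei, beside 0.11. These counts are over members that passed the filter and describe them only, since the classes were built from other genes of the same nuclei.

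**Figure D1:**
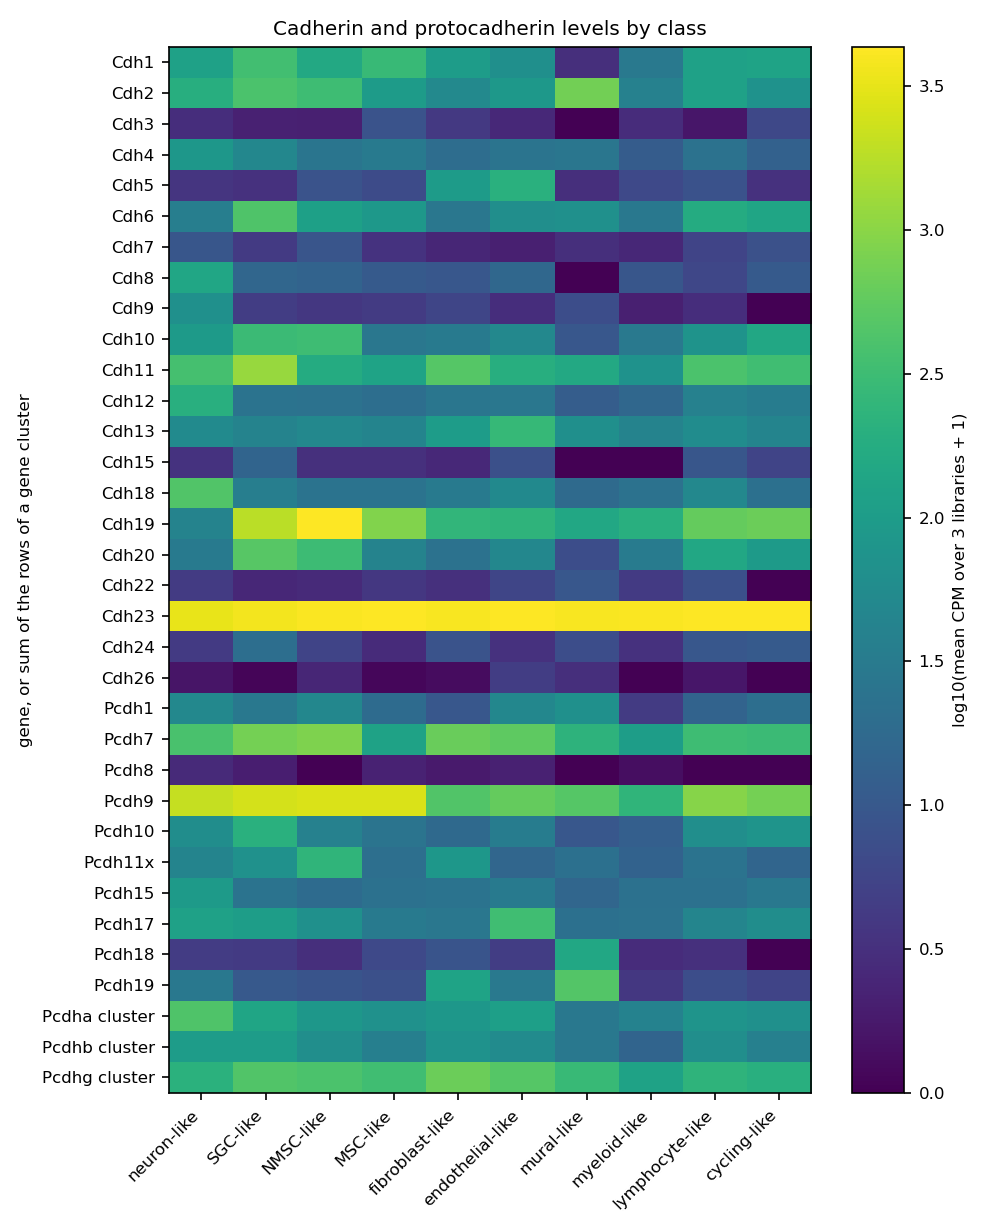
Heatmap of the reported members outside the gene clusters and of the 3 cluster sums (rows) in the cell classes (columns), colour being log10 of the mean CPM of the 3 libraries plus 1. Cdh19 stood out in NMSC-like nuclei at a mean of 4227 CPM, Cdh5 in endothelial-like nuclei at 205 CPM, and Cdh23 was high in every column.

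Among the cadherins of the glia, Cdh19, a type II cadherin known from the Schwann cell lineage, was at 5039, 3603 and 4039 CPM in NMSC-like nuclei, a mean of 4227 ± 736 CPM (n = 3). It was at 1535, 1946 and 1902 CPM in SGC-like nuclei, at 544, 1018 and 1130.0 CPM in MSC-like nuclei and at 41.7, 50.5 and 33.6 CPM in neuron-like nuclei. The order NMSC-like, SGC-like, MSC-like and then neuron-like nuclei held in every library with no overlap between these classes. In NMSC-like nuclei Cdh19 was above the average of all others (log2 fold change 3.53 ± 0.20, adjusted p = 1.41e-13 by edgeR), as it was in SGC-like (2.21 ± 0.21) and MSC-like nuclei (1.11 ± 0.24), and it was lower in neuron-like nuclei (-3.64 ± 0.34).

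Cdh20, which lies with Cdh7 and Cdh19 on chromosome 1 (chr1:104768529-104995481 on GRCm38, with Cdh19 at chr1:110888326-110977584), had its highest level in SGC-like nuclei, at 498, 491 and 462 CPM (484 ± 19.3 CPM, n = 3). NMSC-like nuclei were next at 346, 353 and 247 CPM, and MSC-like nuclei were at 66.6, 29.4 and 28.5 CPM. The lowest SGC-like library lay above the highest library of every other class, and edgeR gave log2 fold change 3.14 ± 0.18, adjusted p = 3.12e-13 for SGC-like nuclei and 2.33 ± 0.21 for NMSC-like nuclei. Cdh6 was at 619, 317 and 349 CPM in SGC-like nuclei, the highest class in every library, with the adult library above both aged ones (log2 fold change 2.77 ± 0.21, adjusted p = 3.41e-11). Cdh11 (OB-cadherin, known from bone and mesenchyme) was at 1283, 1089 and 1222 CPM in SGC-like nuclei and at 438, 479 and 528 CPM in fibroblast-like nuclei. The SGC-like values again exceeded those of every other class in all libraries (log2 fold change 2.48 ± 0.20, adjusted p = 9.41e-11), and Pcdh10, a delta protocadherin, was at 194, 224 and 183 CPM in SGC-like nuclei (log2 fold change 2.67 ± 0.18, adjusted p = 3.28e-12).

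The classical cadherins of the glia did not follow a single class. Cdh2 was at 315, 424 and 487 CPM in SGC-like nuclei (log2 fold change 2.13 ± 0.17, adjusted p = 5.97e-11) and at 316, 344 and 306 CPM in NMSC-like nuclei (1.68 ± 0.19), and the ranges of these classes overlapped. Cdh1, which joins epithelial cells and the loops of peripheral myelin, was at 363, 356 and 323 CPM in SGC-like nuclei (log2 fold change 1.82 ± 0.21, adjusted p = 4.69e-08) and at 231, 265 and 341 CPM in MSC-like nuclei (log2 fold change 1.51 ± 0.22, adjusted p = 3.52e-06). Here too the ranges overlapped, since aged replicate 2 was the highest MSC-like library and the lowest SGC-like one. NMSC-like nuclei had 286, 80.9 and 98.5 CPM of Cdh1, with the adult library far above the aged ones, and were not called. Cdh15 (M-cadherin) was low but was also higher in SGC-like nuclei, at 12.7, 14.9 and 14.3 CPM (log2 fold change 3.07 ± 0.39, adjusted p = 5.39e-07), as was Cdh24 at 18.5, 15.3 and 25.3 CPM (2.19 on the log2 scale).

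NMSC-like nuclei also carried 3 further members. Cdh10 was at 271, 348 and 352 CPM in NMSC-like nuclei (log2 fold change 2.26 ± 0.20, adjusted p = 1.66e-09) and at 225, 343 and 324 CPM in SGC-like nuclei (2.18 ± 0.18), and the NMSC-like value was above the SGC-like one in every library by a small margin, with overlapping ranges. The X-linked delta protocadherin Pcdh11x was at 155, 318 and 239 CPM in NMSC-like nuclei, where its lowest library exceeded every library of the other classes (log2 fold change 3.16 ± 0.21, adjusted p = 3.22e-12). Pcdh7 was at 713, 849 and 972 CPM there (log2 fold change 1.43 ± 0.25, adjusted p = 0.000125), with overlapping ranges in SGC-like nuclei at 815, 729 and 738 CPM and in fibroblast-like nuclei at 777, 507 and 656 CPM. Pcdh9 was shared by all glia and neurons, at 2976, 2473 and 2615 CPM in MSC-like nuclei (log2 fold change 1.65 ± 0.21, adjusted p = 5.01e-07), 3251, 2438 and 2278 CPM in NMSC-like nuclei (1.51 ± 0.22), 2851, 2425 and 2267 CPM in SGC-like nuclei (1.51 ± 0.22) and 2692, 1908 and 1606 CPM in neuron-like nuclei (1.43 ± 0.22). The 4 ranges overlapped, and the neuron-like call for Pcdh9 was lost, at 0.13, when classes were set by gates on marker counts in place of clusters.

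In the vessels, Cdh5, the adhesion molecule of endothelial junctions, was at 197, 191 and 226 CPM in endothelial-like nuclei (205 ± 18.5 CPM, n = 3; log2 fold change 4.81 ± 0.24, adjusted p = 1.83e-15). It was also at 73.9, 98.2 and 119 CPM in fibroblast-like nuclei, above each remaining class in every library and below the endothelial-like range (log2 fold change 3.61 ± 0.24, adjusted p = 6.27e-13). Pcdh17 was at 234, 346 and 404 CPM in endothelial-like nuclei (log2 fold change 2.71 ± 0.21, adjusted p = 3.08e-11), and Cdh13 (T-cadherin, which is held to the membrane by a lipid anchor) was at 257, 233 and 315 CPM there (log2 fold change 2.44 ± 0.23, adjusted p = 9.77e-10). Endothelial-like nuclei were the highest tested class for both in every library. Pcdh12, an endothelial protocadherin below the 100 UMI minimum, was also called higher in endothelial-like nuclei.

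The fibroblast-like class held 4 clusters, of which that led by Ranbp3l had 138, 21 and 11 nuclei. Its values in aged replicate 2 therefore rest on few nuclei. Pcdh19, the X-linked delta protocadherin of female-limited epilepsy, was at 106, 138 and 134 CPM in fibroblast-like nuclei as a whole (log2 fold change 3.84 ± 0.22, adjusted p = 2.87e-14), above all other tested classes. Within the class it was at 267, 186 and 211 CPM in the cluster led by Ccdc33, at 39.8, 194 and 156 CPM in the cluster led by Mmp2, at 30.1, 27.8 and 80.7 CPM in that led by Slc47a1 and at 22.9, 20.6 and 0 CPM in that led by Ranbp3l. Cdh5 was highest in the clusters led by Ccdc33 (123, 154 and 211 CPM) and Ranbp3l (116, 123 and 208 CPM) and lower in those led by Mmp2 (19.1, 50.6 and 88.4 CPM) and Slc47a1 (42.8, 55.6 and 59.2 CPM). Pcdh7 was at 1565, 1325 and 1474 CPM in the Slc47a1 cluster, 303, 289 and 386 CPM in the Mmp2 cluster, 253, 154 and 13.9 CPM in the Ranbp3l cluster and 194, 179 and 73.7 CPM in the Ccdc33 cluster. Between the Slc47a1 and Ccdc33 clusters the libraries of Cdh5 and of Pcdh7 did not overlap, in opposite orders. Mural-like nuclei, with few nuclei in aged replicate 2, had 459, 435 and 496 CPM of Pcdh19, 598, 831 and 744 CPM of Cdh2 and 62.9, 145 and 248 CPM of Pcdh18, the last from 10, 11 and 3 UMIs.

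Neuron-like nuclei were above the other classes in Cdh9, Cdh18, Cdh8, Cdh12, Cdh4 and Pcdh15. Cdh9 was at 63.0, 44.6 and 92.5 CPM in neuron-like nuclei (log2 fold change 5.64 ± 0.32, adjusted p = 3.37e-14), and no library of another class exceeded 8.93 CPM. Cdh18 was at 507, 395 and 414 CPM (log2 fold change 4.19 ± 0.19, adjusted p = 6.2e-17), Cdh8 at 128, 144 and 152 CPM (log2 fold change 4.09 ± 0.20, adjusted p = 3.17e-16) and Cdh12 at 270.2, 181 and 137 CPM (log2 fold change 3.32 ± 0.13, adjusted p = 3.7e-18). For all 4 the lowest neuron-like library was above the highest library of every other tested class. The same held for Cdh4 (R-cadherin), at 75.7, 77.7 and 98.9 CPM (log2 fold change 2.29 ± 0.17, adjusted p = 2.84e-12), and for Pcdh15, at 82.0, 94.0 and 105 CPM (log2 fold change 2.30 ± 0.16, adjusted p = 1.02e-12), a partner of Cdh23 in the tip links of hair cells.

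Cdh23 itself differed from the other members in the evenness of its counts. It held 747696 UMIs, the most of any member, and its levels over the 9 tested classes ran from 5283 to 5887 CPM in the adult library, from 2394 to 4407 CPM in aged replicate 1 and from 1647 to 2990 CPM in aged replicate 2. The highest class was 1.11, 1.84 and 1.81 times the lowest, whereas the median of that ratio over the 21 members with a UMI in every class and library was 8.48, 15.0 and 21.3. Barcodes with at most 100 UMIs, taken here as free RNA, held 6167, 5676 and 3737 CPM of Cdh23, above every class of the same library, and Cdh23 was called higher in no class. The gene lies at chr10:60302748-60696490 (GRCm38), and Vsir and Gm17455 lie within it on the other strand. Whether strand was used in counting is not given in the sources used here, so reads of these genes cannot be told apart with certainty.

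**Figure D2:**
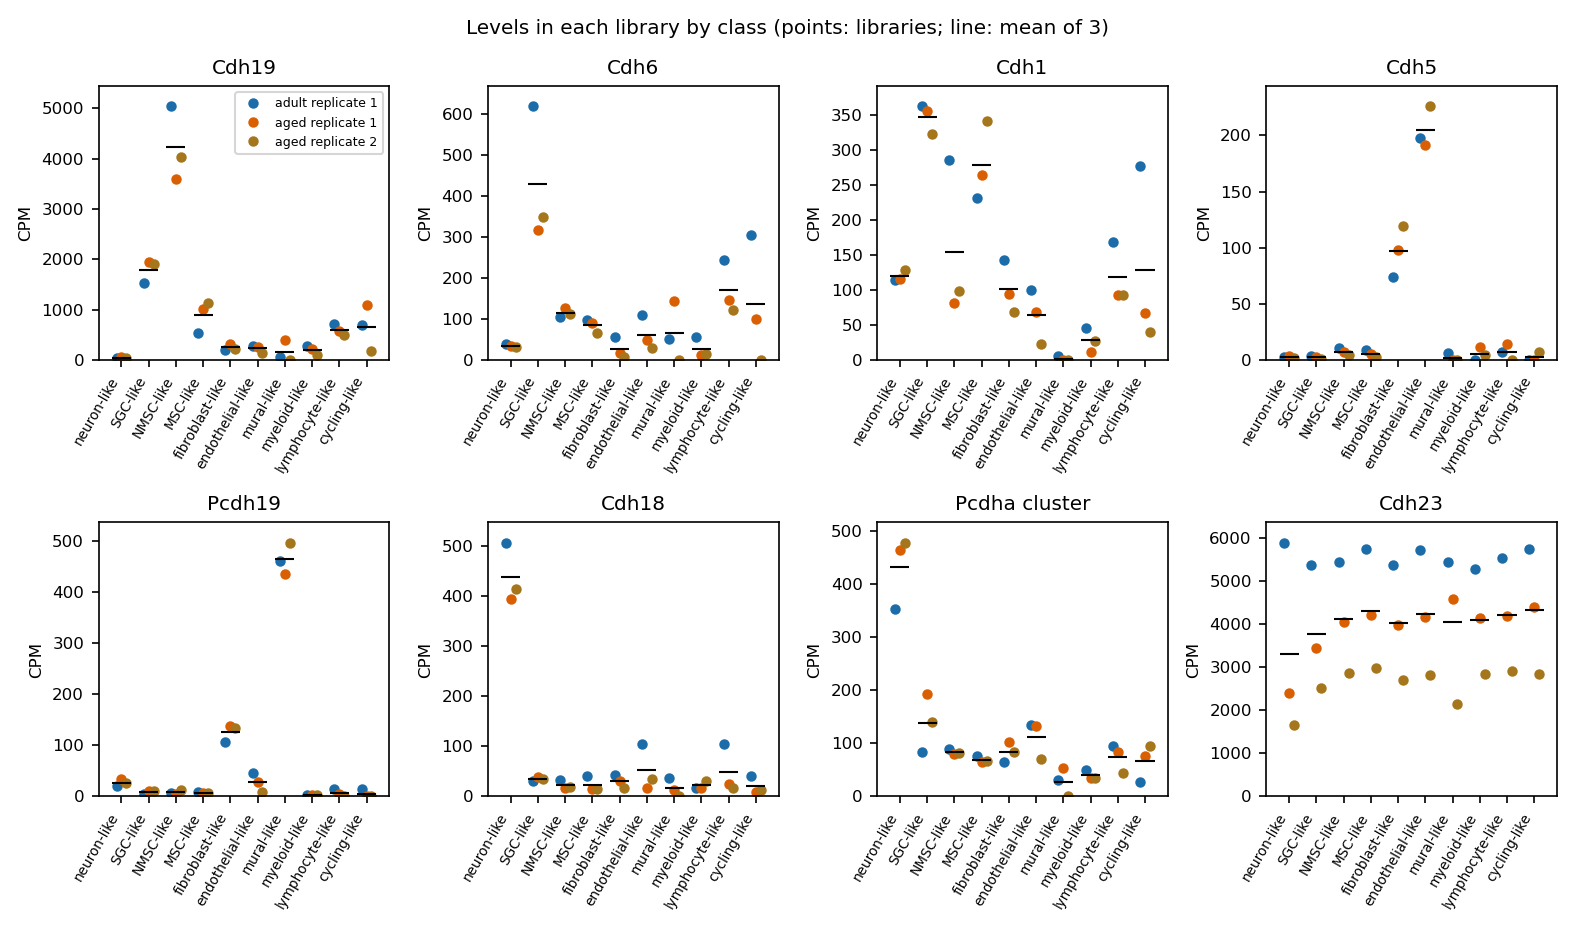
Level (CPM, linear axis) in each class for 8 members or cluster sums, one point per library in its own colour, with a line at the mean. Points of the 3 libraries lie close together for Cdh19, Cdh5, Cdh18 and Pcdh19 in the class where each was highest, whereas for Cdh23 the adult points lie above the aged ones in all tested classes.

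The genes of the Pcdha cluster share their last exons, as do those of Pcdhg, so each cluster was also summed to 1 value in a fit added after the data were seen. The Pcdha sum was highest in neuron-like nuclei, at 353, 464 and 477 CPM (log2 fold change 2.65 ± 0.15, adjusted p = 9.25e-15), with 83.1, 193 and 139 CPM in SGC-like nuclei (log2 fold change 0.67 ± 0.17, adjusted p = 0.00281). The Pcdhg sum was instead highest in fibroblast-like nuclei, at 547, 639.6 and 808 CPM (log2 fold change 1.20 ± 0.14, adjusted p = 5e-08), and in neuron-like nuclei was below the average of all others, at 181, 217 and 239.9 CPM (log2 fold change -0.38 ± 0.15, adjusted p = 0.0364). Each sum was highest in the class named in every library. The Pcdhb sum was higher in neuron-like nuclei, at 68.5, 116 and 114 CPM (log2 fold change 1.30 ± 0.14, adjusted p = 4.09e-09), and in SGC-like nuclei, at 64.4, 104 and 133 CPM (log2 fold change 1.20 ± 0.14, adjusted p = 1.11e-07), with overlapping ranges. In myeloid-like nuclei all 3 sums were lower, by log2 fold changes of -1.52, -2.42 and -1.40 for Pcdha, Pcdhb and Pcdhg.

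Sensory neurons fall into subtypes by the stimulus they carry. Members were compared between 10 neuron subtypes after neuron-like clusters with low Malat1, a nuclear noncoding RNA, were set aside. Names were given from markers: TH-like (low-threshold touch neurons), NP-like (non-peptidergic nociceptors, with a separate Mrgpra3 cluster), TRPM8-like (cold), PEP-like (peptidergic nociceptors), SST-like (itch), and 3 neurofilament (NF)-like clusters led by Nxph1, Skor2 and Zfp804b. The NF-like names rest on other markers of that list, since none of the 3 reached the neurofilament gene Nefh, and cell size was not measured. A cluster led by Chrna7 stayed without a name. NP-like joins 2 clusters that shared leading genes, with medians of 28487 and 3145 UMIs per nucleus. The first gave 371, 204 and 174 nuclei and the second 466, 132 and 73, so their mix differed between the libraries. Of the 78 members that passed the filter, 69 were higher in at least 1 subtype than in the mean of the other subtypes, beside 81.5% of all genes.

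**Figure D3:**
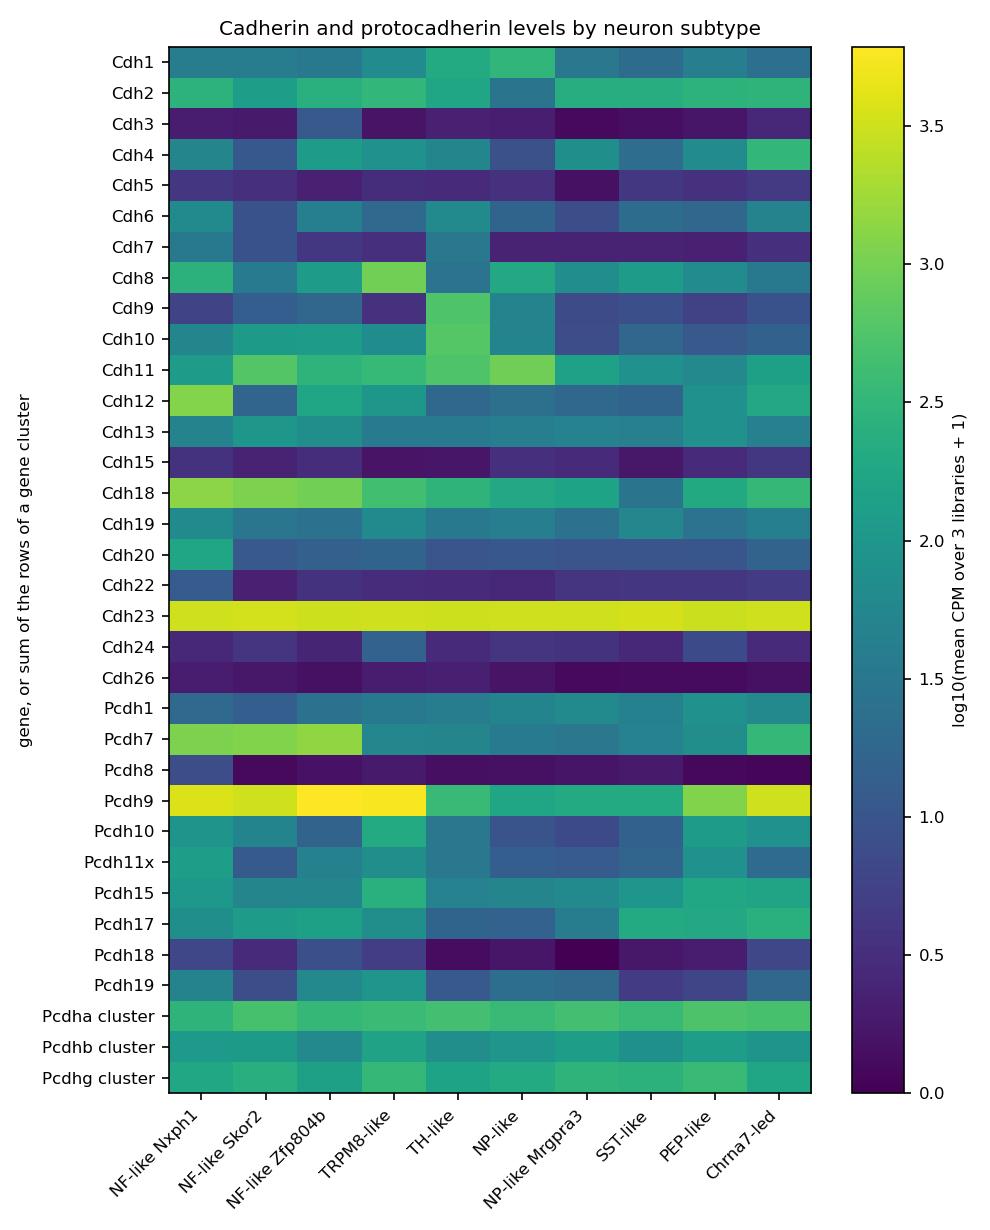
Heatmap of the reported members outside the gene clusters and of the 3 cluster sums (rows) in the neuron subtypes (columns), colour being log10 of the mean CPM of the 3 libraries plus 1. Cdh9 and Cdh10 stood out in TH-like, Cdh12 and Cdh20 in NF-like Nxph1, Cdh8 in TRPM8-like and Cdh4 in Chrna7-led nuclei.

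In TH-like nuclei 16 members were higher (beside 20.5% of all genes), 10 of them clustered protocadherins, and 21 were lower (beside 15.7%), 13 of them clustered. Cdh9 was at 477, 487 and 683 CPM in TH-like nuclei (549 ± 116 CPM, n = 3; log2 fold change 5.97 ± 0.20, adjusted p = 6.53e-19), and no other subtype exceeded 74.4 CPM in any library. Cdh10 was at 566, 573 and 687 CPM (609 ± 67.9 CPM, n = 3; log2 fold change 4.31 ± 0.15, adjusted p = 8.08e-19), against a highest value of 148 CPM elsewhere. Cdh6 was at 51.2, 61.7 and 78.0 CPM (log2 fold change 1.64 ± 0.20, adjusted p = 1.54e-07), overlapping with NF-like Nxph1 nuclei at 62.9, 73.5 and 57.8 CPM, and Cdh7 was at 21.2, 35.6 and 37.1 CPM (log2 fold change 3.51 ± 0.25, adjusted p = 4.37e-12). Cdh1 was at 218, 198 and 198 CPM in TH-like nuclei (log2 fold change 2.30 ± 0.13, adjusted p = 4.33e-14), below the NP-like range and above all other subtypes. Pcdh17 (-2.46 ± 0.24), Cdh8 (-2.05 ± 0.25) and Cdh12 (-1.91 ± 0.20) were lower in TH-like nuclei.

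Cdh6, Cdh9 and Cdh10 lie on chromosome 15 with Cdh12 and Cdh18, between positions 13028701 and 23474418 (GRCm38). To see what the promoters of members share, the 250 bases before the RefSeq start were compared for 21 of the 87 reported members, over 210 pairs on both strands (the promoters of the others were not analysed here). Apart from runs of simple repeats, Cdh6 and Cdh9 shared a run of 15 bases, which was in 2 of 32851 RefSeq promoters (0.00609%), those of these genes. It starts 18 bases before the start of Cdh6 and 209 bases before that of Cdh9. The 8 bases TTGCAAAT within it were in 232 promoters (0.706%) and, of the 21 member promoters, in these 2. The run was picked as the longest such match among all pairs, so its rarity elsewhere largely follows from how it was picked. Both genes were higher in TH-like nuclei, but so was Cdh10, whose promoter was searched and had neither the run nor the 8 bases. The stretches are shown with the shared run in capitals, from GRCm38.p6, at chr15:13173676-13173795 on the minus strand for Cdh6 and chr15:16728665-16728755 on the plus strand for Cdh9. Each is written 5′ to 3′.
Cdh6: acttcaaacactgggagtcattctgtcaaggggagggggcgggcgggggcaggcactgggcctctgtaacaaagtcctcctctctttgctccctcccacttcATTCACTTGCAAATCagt
Cdh9: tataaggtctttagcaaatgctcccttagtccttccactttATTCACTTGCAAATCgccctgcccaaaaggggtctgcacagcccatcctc
The match was noticed after the values had been seen and says nothing of which factor, if any, binds there. Cdh6 and Cdh9 were not alike in their other levels, since Cdh6 was highest in SGC-like nuclei and Cdh9 in neuron-like nuclei. The shorter motif CCAAT, on either strand, was in 13 of the 21 member promoters and in 33.8% of all promoters.

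NP-like nuclei carried Cdh1 and Cdh11. There 5 members were higher (beside 21.7% of all genes) and 14 lower (beside 17.8%). Cdh1 was at 305, 304 and 325 CPM (311 ± 11.8 CPM, n = 3; log2 fold change 2.94 ± 0.12, adjusted p = 5.33e-17), with all libraries above those of every other subtype. Cdh11 was at 925, 971 and 899 CPM (932 ± 36.7 CPM, n = 3; log2 fold change 2.31 ± 0.15, adjusted p = 8.42e-13), also with no overlap. Cdh2 had its lowest levels among the subtypes there, at 40.1, 25.8 and 18.3 CPM (log2 fold change -2.94 ± 0.18, adjusted p = 1.29e-13), and Cdh4 was at 9.14, 8.50 and 5.69 CPM (log2 fold change -2.80 ± 0.21, adjusted p = 1.02e-11). Pcdh9 (-3.09 ± 0.27) and Pcdh17 (-2.60 ± 0.22) were lower as well. In the Mrgpra3 cluster 13 members were higher (beside 14.3%), of which 11 belonged to the gene clusters, and 13 lower (beside 11.3%). Its unclustered higher members were Pcdh1 (0.77 ± 0.13) and Cdh4 (0.66 ± 0.19), and Cdh11 was at 124, 150.5 and 162 CPM and Cdh1 at 32.8, 22.0 and 40.8 CPM, below the NP-like range in every library.

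TRPM8-like nuclei had 26 members higher (beside 15%) and 4 lower (beside 12.2%). Cdh8, known from cold-sensing neurons, was at 1015, 862 and 1006 CPM (961 ± 85.6 CPM, n = 3; log2 fold change 3.56 ± 0.15, adjusted p = 1.09e-16), and the next subtype, NF-like Nxph1, was at 279.9, 313 and 228 CPM. These did not overlap. Pcdh10 was at 184, 201 and 227 CPM (log2 fold change 2.72 ± 0.15, adjusted p = 2.33e-14), with all libraries above those of the other subtypes, and Pcdh19 at 55.8, 122 and 103 CPM (log2 fold change 2.55 ± 0.19, adjusted p = 1.23e-11), the highest subtype in each library. Cdh24 was low, at 12.3, 13.9 and 16.7 CPM, and likewise highest there (log2 fold change 2.53 ± 0.27, adjusted p = 1.91e-08). Pcdh15 was at 224, 279 and 257 CPM (log2 fold change 1.60 ± 0.16, adjusted p = 1.04e-08), above the other subtypes without overlap. Pcdh9, at 6906, 4868 and 5344 CPM (log2 fold change 2.51 ± 0.17, adjusted p = 1.96e-12), was in the same range as in NF-like Zfp804b nuclei.

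The 3 NF-like clusters differed in their cadherins and shared a protocadherin. Pcdh7 was at 1575, 1418 and 1268 CPM in NF-like Zfp804b (log2 fold change 3.70 ± 0.15, adjusted p = 3.02e-17), 1247, 1169 and 1056 CPM in NF-like Skor2 (log2 fold change 3.32 ± 0.16, adjusted p = 1.25e-15) and 1273, 1014 and 1002 CPM in NF-like Nxph1 nuclei (log2 fold change 3.20 ± 0.16, adjusted p = 8.3e-16). No library of another subtype exceeded 358 CPM of Pcdh7. Cdh18 was also shared, at 1620.3, 1291 and 1157 CPM in NF-like Nxph1 (log2 fold change 2.38 ± 0.12, adjusted p = 3.15e-15), 1028, 1019.6 and 1242 CPM in NF-like Skor2 (log2 fold change 2.02 ± 0.13, adjusted p = 4.82e-13) and 1174, 818 and 874 CPM in NF-like Zfp804b nuclei (log2 fold change 1.89 ± 0.13, adjusted p = 1.14e-12), with overlapping ranges.

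NF-like Nxph1 nuclei, with 20 members higher (beside 23.9%) and 16 lower (beside 17.5%), were set apart by Cdh12, at 1472, 1168 and 1030.5 CPM (1224 ± 226 CPM, n = 3; log2 fold change 4.83 ± 0.11, adjusted p = 2.46e-22). The highest library of another subtype had 213 CPM of Cdh12. Cdh20, a gene of the glia in the comparison of classes, was at 249, 152 and 105 CPM there (log2 fold change 3.93 ± 0.21, adjusted p = 4.02e-15) and at most 25.3 CPM in other neuron subtypes. Its adult library was highest, and the aged libraries remained above the other subtypes. Cdh7, its neighbour on chromosome 1, was at 43.3, 23.2 and 31.9 CPM (log2 fold change 3.55 ± 0.24, adjusted p = 1.17e-12), in the same range as in TH-like nuclei. Pcdh11x was at 137, 125 and 136 CPM (log2 fold change 2.37 ± 0.17, adjusted p = 2.13e-12) and Cdh22 at 9.09, 9.34 and 16.1 CPM (log2 fold change 2.23 ± 0.30, adjusted p = 4.93e-07), each above all other subtypes, and Pcdh8 rested on 33, 32 and 20 UMIs (3.82 ± 0.36).

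In NF-like Zfp804b nuclei 16 members were higher (beside 26.9%) and 27 lower (beside 23.7%), 23 of the latter being clustered protocadherins. Pcdh9 was at 7124, 6006 and 5238 CPM (6123 ± 948 CPM, n = 3; log2 fold change 2.79 ± 0.16, adjusted p = 6.4e-14), and Cdh3 (P-cadherin), at 13.2, 5.47 and 12.1 CPM, was above the other subtypes in every library (log2 fold change 3.72 ± 0.34, adjusted p = 4.26e-10). Pcdh18 (2.91 ± 0.36) and Pcdh19 at 44.1, 79.5 and 58.1 CPM (log2 fold change 2.05 ± 0.17, adjusted p = 1.02e-10) were higher as well. NF-like Skor2 nuclei had 14 members higher (beside 15.4%) and 10 lower (beside 12.3%), with Cdh11 at 635, 474 and 640.3 CPM (1.55 ± 0.17), Cdh10 at 72.0, 148 and 119 CPM (1.46 ± 0.22) and Cdh4 lower at 13.9, 9.25 and 7.22 CPM (-2.30 ± 0.28). Cdh13 had its highest subtype level there, at 117, 100.3 and 87.9 CPM.

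The Chrna7-led cluster carried Cdh4, at 316, 274 and 379.7 CPM (323 ± 53.1 CPM, n = 3; log2 fold change 3.07 ± 0.13, adjusted p = 8.1e-17), more than in any library of another subtype. It had 14 members higher (beside 18.4%) and 12 lower (beside 11.6%), with Pcdh17 at 258, 229 and 270.4 CPM (log2 fold change 1.91 ± 0.15, adjusted p = 4.52e-11) and Cdh12 at 212, 205 and 156 CPM (log2 fold change 1.87 ± 0.13, adjusted p = 6.79e-12). PEP-like nuclei had the most higher members of any subtype, 34 (beside 22.9%), with 12 lower (beside 19.3%), and 25 of the higher ones were clustered. The unclustered ones were led by Pcdh10 at 121, 133 and 109.7 CPM (log2 fold change 1.87 ± 0.14, adjusted p = 1.96e-11), Pcdh11x at 70.8, 84.2 and 89.1 CPM (log2 fold change 1.49 ± 0.18, adjusted p = 7.78e-08) and Pcdh17 (1.33 ± 0.16), and Pcdh1 at 69.7, 82.1 and 90.9 CPM was highest there in each library (1.20 ± 0.10). Cdh10 (-2.39 ± 0.27) and Cdh11 (-2.23 ± 0.23) were lower. SST-like nuclei had 3 higher members (beside 15.3%) and 16 lower (beside 15.9%). Pcdh17 was their single unclustered higher member, at 181, 215 and 229 CPM (log2 fold change 1.43 ± 0.19, adjusted p = 7.22e-07), and Cdh18 was lower by the most, with 41, 13 and 20 UMIs (log2 fold change -3.99 ± 0.25, adjusted p = 3.37e-13).

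**Figure D4:**
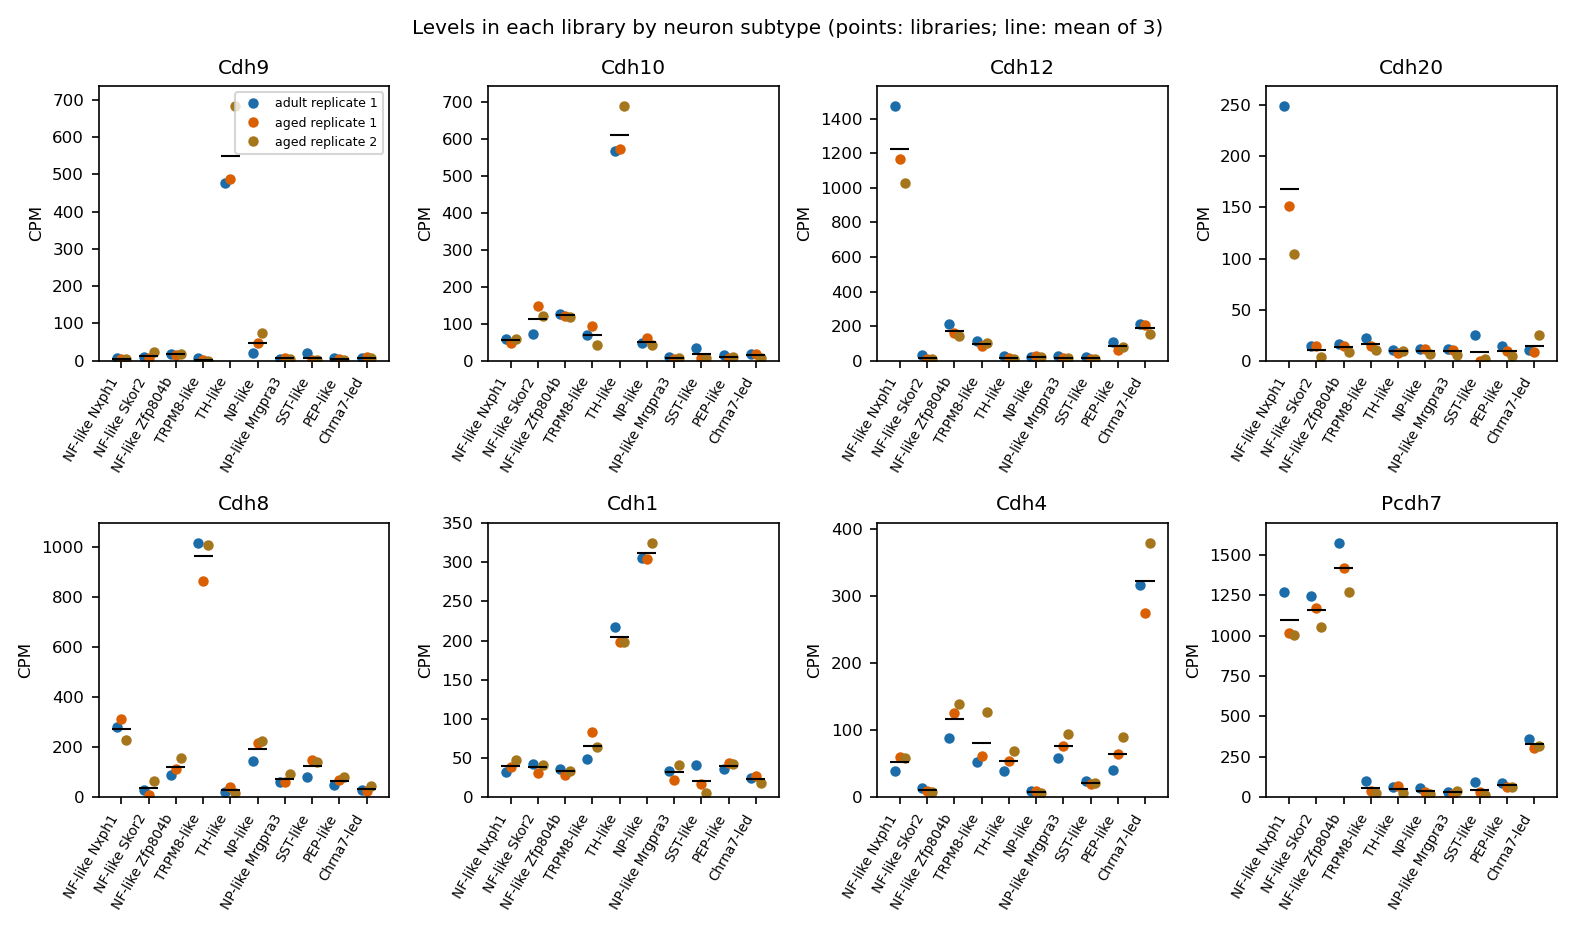
Level (CPM, linear axis) of 8 members in each neuron subtype, one point per library in its own colour, with a line at the mean. TH-like libraries lie at 477 to 683 CPM for Cdh9, NF-like Nxph1 libraries at 1030.5 to 1472 CPM for Cdh12, and TRPM8-like libraries at 862 to 1015 CPM for Cdh8, each above all other subtypes.

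The sums of the clustered protocadherins were also compared between subtypes. The Pcdhg sum was at 301, 361 and 386 CPM in PEP-like nuclei (log2 fold change 0.62 ± 0.08, adjusted p = 7.43e-07) and at 128, 144 and 152 CPM in NF-like Zfp804b nuclei (log2 fold change -0.63 ± 0.10, adjusted p = 3.43e-06). The Pcdhb sum was at 98.9, 174 and 176 CPM in TRPM8-like (log2 fold change 0.59 ± 0.10, adjusted p = 5.34e-05) and 35.7, 71.1 and 73.6 CPM in NF-like Zfp804b nuclei (log2 fold change -0.73 ± 0.11, adjusted p = 2.81e-06). The Pcdha sum ranged from -0.53 in NF-like Nxph1 to 0.37 in PEP-like nuclei on the log2 scale. In TH-like nuclei the Pcdhb sum was lower (-0.45 ± 0.11), whereas 4 adjacent genes of that cluster on chromosome 18 (Pcdhb4, Pcdhb5, Pcdhb6 and Pcdhb7) were higher, there and in NF-like Skor2 nuclei, a pattern singled out after its values were seen. Their log2 fold changes were 2.04, 2.22, 2.33 and 1.91 in NF-like Skor2 and 1.70, 2.04, 1.86 and 1.68 in TH-like nuclei, all called by edgeR. Counts behind them were small, Pcdhb7 being at 6.54, 21.6 and 18.4 CPM in NF-like Skor2 and 4.51, 13.2 and 21.0 CPM in TH-like nuclei (33, 33 and 65 UMIs). Pcdhb9 was lower in both (-2.02 ± 0.62 and -1.65 ± 0.41), and Pcdhb22 was lower in TH-like nuclei (-1.42 ± 0.17).

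Partners of the cadherins were followed as well. Of the 12 catenins and actin links listed, 6 were higher (beside 16.7% of all genes) and 3 lower (beside 18.9%) in SGC-like nuclei, 6 (beside 18%) and 3 (beside 14.9%) in MSC-like, 6 (beside 37.1%) and 4 (beside 24.8%) in neuron-like and 4 (beside 29.4%) and 7 (beside 18.1%) in myeloid-like nuclei. With free RNA subtracted 5 of the 11 calls in myeloid-like nuclei remained, and 8 of 9, 8 of 9 and 9 of 10 in the other 3 classes. Ctnna3 (alpha T-catenin) was at 4382, 4206 and 4439.6 CPM in MSC-like nuclei (log2 fold change 4.83 ± 0.25, adjusted p = 2.39e-15), Ctnnd2 (delta-catenin) at 3916, 2655 and 2849 CPM in SGC-like nuclei (log2 fold change 3.20 ± 0.30, adjusted p = 1.19e-09) and Ctnna2 (alpha N-catenin) at 3914, 3047 and 3479 CPM in neuron-like nuclei (log2 fold change 4.41 ± 0.16, adjusted p = 1.71e-18). Of the 13 tested genes of other cadherin-repeat families, 8 were higher and 2 lower in neuron-like nuclei and 4 and 3 in MSC-like nuclei, beside the shares of all genes just given. Celsr3, a planar polarity receptor, was at 36.3, 42.6 and 44.6 CPM in neuron-like nuclei (log2 fold change 4.59 ± 0.27, adjusted p = 8.12e-14), Fat4 at 103, 136 and 216 CPM in endothelial-like nuclei (3.46 on the log2 scale) and Dchs2 at 20.7, 37.8 and 48.8 CPM in MSC-like nuclei (4.36). Of the 7 listed proteases and adhesion partners, 3 were higher and 2 lower in neuron-like nuclei, near the shares of all genes.

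Aged and adult libraries were then compared within each class, aged minus adult. Each such fit has 1 residual degree of freedom, from the aged pair, whose spread the single adult library is assumed to share. The test of edgeR also pools information on spread over all genes, so a p-value does not rest on the libraries of that gene alone. A small p-value can therefore stand beside aged libraries that differ, as it does for Cdh8 in SGC-like nuclei below. With 1 adult library, age cannot be told apart from anything else that set this library apart. Malat1 took 8.70%, 2.12% and 2.22% of the UMIs of SGC-like nuclei, the adult library being first, with the same direction in every class. Free RNA of the adult library held more of Cdh13 (407 CPM, against 137 and 123), Cdh6 (74.8, against 33.3 and 25.7) and Cdh20 (57.8, against 27.8 and 20.1). It also held markers of keratinocytes, at 551 CPM against 12.3 and 12.8. Within the classes these markers were lower in both aged libraries throughout, at 62.3, 10.2 and 8.75 CPM in NMSC-like nuclei and 38.5, 6.24 and 2.03 CPM in MSC-like nuclei. Their part in the age differences was not tested. In neuron-like nuclei 16 of 90 members were higher in aged libraries (beside 1.57% of all genes) and 6 lower (beside 6.96%). In SGC-like nuclei 15 of 78 were higher (beside 10.4%) and 9 lower (beside 10.7%), in MSC-like nuclei 1 of 47 higher (beside 2.65%) and 8 lower (beside 4.75%), and in NMSC-like nuclei 0 of 30 higher (beside 3.19%) and 6 lower (beside 4.12%). The median log2 fold change with age of the tested members was 0.33 in neuron-like nuclei, beside 0.01 over all genes, and 0.32 in SGC-like nuclei. For the unclustered members alone it was -0.14 and -0.18.

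All 16 members that were higher in aged neuron-like nuclei were clustered protocadherins, and all 6 that were lower were unclustered. The largest increases were in Pcdhb2 (log2 fold change 1.89 ± 0.46, adjusted p = 0.00129), Pcdhgb7 (log2 fold change 1.65 ± 0.37, adjusted p = 0.000276), Pcdhgb1 (1.56), Pcdhb6 (1.42) and Pcdhb4 (1.40). Behind them were 27, 69 and 48 UMIs for Pcdhb2, 72, 118 and 136 for Pcdhgb7 and 27, 45 and 46 for Pcdhgb1. Pcdhb6 had 32, 55 and 44 UMIs and Pcdhb4 had 60, 100 and 82. Among the subtypes where each was tested, Pcdhb2 was called higher in 0 of 3, Pcdhgb7 in 0 of 7 and Pcdhb6 in 0 of 2. Pcdhgb1 was called in 0 of 1 and Pcdhb4 in 1 of 4, and 0 of these differences were below 0. Summed, the clusters gave 0.29 ± 0.24 for Pcdha, 0.63 ± 0.23 for Pcdhb and 0.21 ± 0.23 for Pcdhg (adjusted p = 0.553, 0.0751 and 0.682 by edgeR). None of these sums passed the threshold. Of the unclustered members, Cdh23 was at 5887, 2394 and 1647 CPM (log2 fold change -1.67 ± 0.24, adjusted p = 1.94e-10), Cdh20 was at 44.2, 27.4 and 17.7 CPM (log2 fold change -1.09 ± 0.22, adjusted p = 3.7e-05), Cdh13 at 76.5, 43.9 and 43.2 CPM (log2 fold change -0.93 ± 0.22, adjusted p = 0.000923) and Cdh12 at 270.2, 181 and 137 CPM (log2 fold change -0.89 ± 0.22, adjusted p = 0.00171). Pcdh9 (log2 fold change -0.74 ± 0.24, adjusted p = 0.0251) and Pcdh7 (log2 fold change -0.66 ± 0.23, adjusted p = 0.0459) fell too. In each of these 6 both aged libraries were below the adult one. Within the 10 neuron subtypes the age difference was below 0 in all 10 for Cdh12 (called lower in 4), Cdh13 (7), Cdh23 (9), Pcdh9 (6) and Pcdh7 (6), and in 9 for Cdh20 (3). NF-like Nxph1 nuclei, the subtype highest in Cdh12 and Cdh20, were 585 of 4595, 218 of 2488 and 86 of 1308 neuron-like nuclei. The part of this mix in the falls over all neuron-like nuclei was not tested. With DESeq2 5 of the 22 calls remained, with free RNA subtracted 10, and with all classes in 1 fit 4 of the 15 tested there, and Cdh12 and Cdh23 kept theirs under each of 8 alternatives with a test. Subtracting free RNA took Cdh13 from 5178, 1825 and 1313 UMIs to 1748, 989 and 928 and its log2 fold change to -0.09, with no call, while all 22 kept their direction. Clusters low in Malat1 gave 878, 1011 and 383 of the neuron-like nuclei, and without them 21 of the 22 calls remained. Markers of other cell types fell in neuron-like nuclei too, those of SGCs from 141 CPM to 122 and 71.0 CPM, those shared by glia from 479 CPM to 435 and 236 CPM and those of myeloid cells from 72.5 CPM to 29.9 and 26.7 CPM, and their part in the falls was not tested.

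In SGC-like nuclei the largest falls were in Cdh13, at 63.5, 29.3 and 32.7 CPM (log2 fold change -1.24 ± 0.17, adjusted p = 6.5e-11), Cdh6, at 619, 317 and 349 CPM (log2 fold change -1.08 ± 0.12, adjusted p = 2.78e-16), and Cdh23, at 5378, 3451 and 2511 CPM (log2 fold change -1.04 ± 0.12, adjusted p = 3.65e-16), followed by Pcdhga7 (-0.78) and Pcdh15 (-0.59). Both aged libraries were below the adult one in the first 3. The largest increases were in Pcdha6 (2.83), Pcdha7 (1.91), Pcdhb2 (1.90), Pcdhb5 (1.75) and Pcdhb9 (1.30), and the sums of Pcdha (log2 fold change 0.83 ± 0.14, adjusted p = 9.28e-08) and Pcdhb (log2 fold change 0.68 ± 0.14, adjusted p = 5.94e-05) rose. Counts behind the single genes were small, with 4, 14 and 7 UMIs of Pcdha6, 14, 27 and 11 of Pcdha7 and 12, 21 and 11 of Pcdhb2. Pcdhb5 had 16, 24 and 14 UMIs and Pcdhb9 had 32, 41 and 16. Pcdh11x rose from 40.4 CPM to 83.6 and 83.3 CPM (log2 fold change 0.86 ± 0.16, adjusted p = 1.97e-06). Cdh8 was at 8.42, 8.99 and 27.9 CPM (log2 fold change 0.81 ± 0.27, adjusted p = 0.0188), a difference that rests on aged replicate 2, since it was -0.078 without it and 1.56 without aged replicate 1. Neuron markers summed to 1110, 2133 and 1782 CPM in SGC-like nuclei, so they too were higher in the aged libraries. Beside the falls, NMSC markers fell from 14467 CPM to 9463 and 9741 CPM and SGC markers from 1929 CPM to 1646 and 1651 CPM. The NMSC list was at 14299, 15507 and 14672 CPM in NMSC-like nuclei, so in the adult library it did not separate these classes. The part of these markers was not tested. Of the 24 calls in SGC-like nuclei, 0 remained with free RNA subtracted, 4 with DESeq2 and 3 with all classes in 1 fit. With free RNA subtracted 23 of the 24 members kept their direction, Cdh6 at -1.17, Cdh23 at -1.17 and Pcdh11x at 0.95. Cdh8, Cdh13 and Pcdha6 had 0 UMIs left in the adult library, so their direction was set by an emptied group. Cdh8 and Pcdha6 are among the 23 for that reason.

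In the Schwann cell-like classes falls outnumbered rises. In MSC-like nuclei Cdh11 was at 201, 99.5 and 80.3 CPM (log2 fold change -1.24 ± 0.17, adjusted p = 7.76e-05), Pcdh7 at 189, 99.1 and 86.4 CPM (log2 fold change -1.12 ± 0.17, adjusted p = 0.000206) and Cdh20 at 66.6, 29.4 and 28.5 CPM (log2 fold change -1.30 ± 0.23, adjusted p = 0.00118). In all 3 the aged libraries were below the adult one and close to each other. Cdh3 (-2.29), Cdh18 (-1.51), Cdh12 (-1.35), Cdh13 (-1.22) and Cdh23 (-0.78) fell as well, and Cdh19 alone rose (log2 fold change 0.87 ± 0.15, adjusted p = 0.000977). In NMSC-like nuclei Cdh1 fell from 286 CPM to 80.9 and 98.5 CPM (log2 fold change -1.82 ± 0.28, adjusted p = 3.36e-08). Cdh13 (-1.55), Pcdh17 (-1.43), Cdh23 (-0.78), Pcdh9 (-0.59) and Cdh19 (-0.52) fell too. With marker gates in place of clusters Cdh19 reversed (0.076) and 1 of these 6 calls remained, against 9 of 9 in MSC-like nuclei. Without aged replicate 1 the fall of Cdh3 was -1.67. Neuron markers summed to 1678, 1357 and 1079 CPM in MSC-like and 1683, 1251 and 884 CPM in NMSC-like nuclei, so they fell with these members. SGC markers fell as well, from 485 CPM to 317 and 282 CPM in MSC-like and from 1036 CPM to 854 and 713 CPM in NMSC-like nuclei, and the MSC markers themselves fell in MSC-like nuclei from 41245 CPM to 17397 and 16161 CPM. Fibroblast markers rose in NMSC-like nuclei, from 991 CPM to 1961 and 1910 CPM. The part of these markers was not tested. Free RNA was at most 28.0%, 15.6% and 13.5% of the UMIs of MSC-like and 28.1%, 14.4% and 11.1% of those of NMSC-like nuclei. With free RNA subtracted 6 of the 7 MSC-like calls that could be tested and 5 of the 6 NMSC-like calls remained. It left Cdh13 with 0 UMIs in the adult library in SGC-like, MSC-like and NMSC-like nuclei (from 815, 138 and 39), so it gives no age difference there, and it did the same to Cdh12 and Cdh18 in MSC-like nuclei. With DESeq2, 3 of the 9 calls in MSC-like and 1 of the 6 in NMSC-like nuclei remained, and with all classes in 1 fit 2 and 2.

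In endothelial-like nuclei 0 of 40 members were higher (beside 0.484%) and 5 lower (beside 1.66%) in aged libraries. These were Cdh18 (104, 17.2 and 35.0 CPM; log2 fold change -2.23 ± 0.43, adjusted p = 7.42e-05), Pcdh9 (-1.66), Cdh20 (-1.48), Cdh6 (-1.45) and Cdh11 (321, 177 and 76.4 CPM; log2 fold change -1.30 ± 0.35, adjusted p = 0.013). SGC markers summed to 550, 393 and 159 CPM and neuron markers to 2356, 1987 and 1197 CPM in this class, and their part in these falls was not tested. Cdh20 had 71, 46 and 1 UMIs, and its difference was -0.95 without aged replicate 2 and -4.76 without aged replicate 1. Without aged replicate 1 the differences of Pcdh9, Cdh11 and Cdh18 were -2.46, -2.09 and -1.60. Cdh5 itself was at 197, 191 and 226 CPM, with no age difference called (log2 fold change 0.02 ± 0.36, adjusted p = 0.995). In fibroblast-like nuclei 0 of 58 members were higher (beside 1.96%) and 6 lower (beside 2.7%), with Cdh6 at 57.1, 17.3 and 6.55 CPM (log2 fold change -2.24 ± 0.36, adjusted p = 5.71e-08), then Cdh12 (-1.47), Cdh20 (-1.31), Cdh1 (-0.89), Cdh23 (-0.77) and Pcdh9 (-0.77). SGC markers there summed to 1534, 1285 and 1272 CPM, MSC markers to 967, 618 and 518 CPM and those shared by glia to 466, 396 and 187 CPM. NMSC markers went the other way, from 1920 CPM to 2667 and 2250 CPM, and the part of these markers was not tested. Cdh20 had 159, 44 and 5 UMIs in fibroblast-like nuclei, its difference was -0.69 without aged replicate 2 and -3.05 without aged replicate 1, it reversed with marker gates (0.17), and its call remained in 2 of 7 alternatives with a test. Without aged replicate 1 the differences of Cdh6 and Pcdh9 were -3.18 and -1.75, and without aged replicate 2 -1.80 and -0.19. In myeloid-like nuclei 0 of 26 were higher (beside 4.34%) and 2 lower (beside 3.64%), Cdh13 (-2.21) and Cdh6 (-2.04), where SGC markers fell from 490 CPM to 168 and 105 CPM. DESeq2 called 0 members in these 3 classes. In lymphocyte-like nuclei edgeR called 0 of 24 (beside 0% higher and 0.0573% lower), and DESeq2 called 0. At an unadjusted p under 0.05 by edgeR were 12 of the members, beside 995 of all 10472 genes tested.

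**Figure D5:**
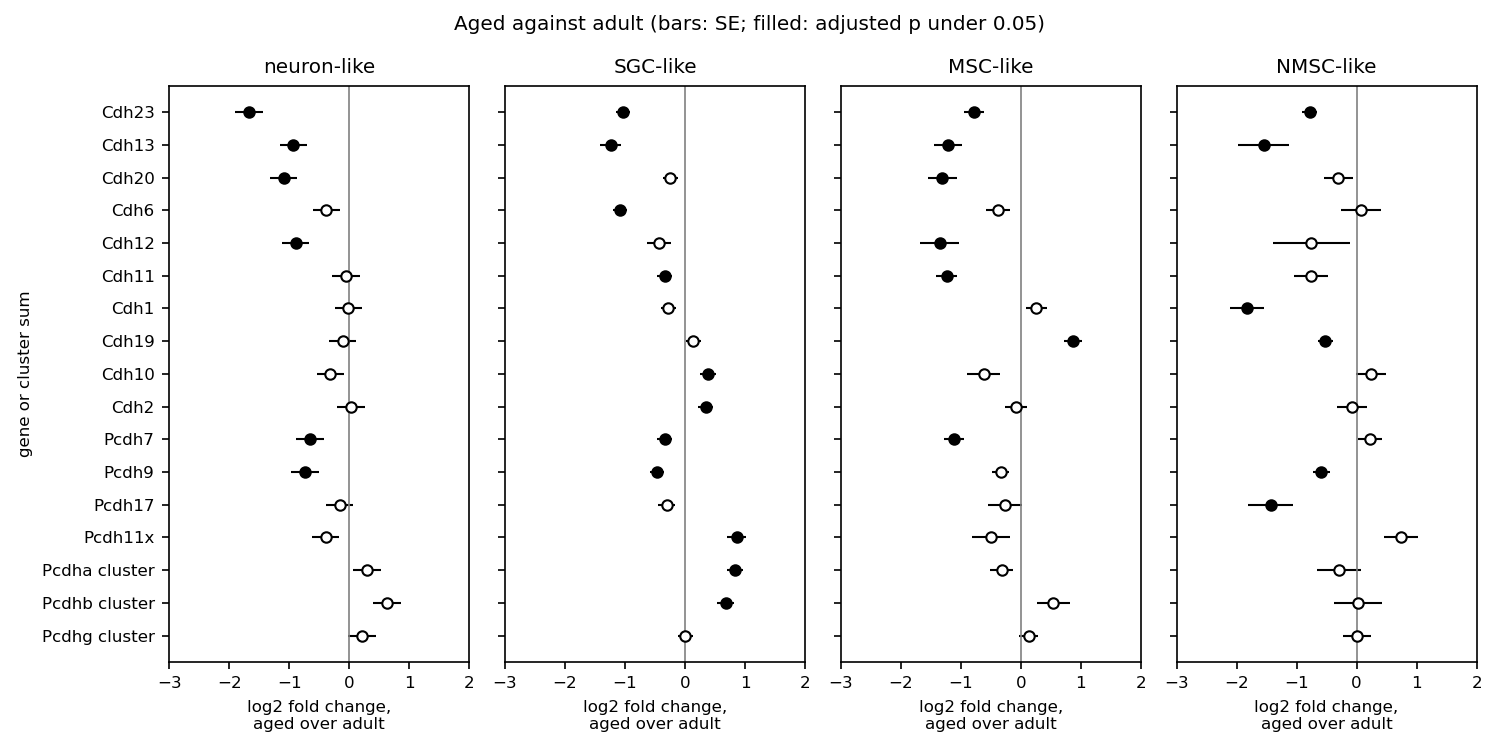
Log2 fold change with age (aged against adult, edgeR) with its SE for members and the 3 cluster sums in neuron-like, SGC-like, MSC-like and NMSC-like nuclei, filled points passing an adjusted p of 0.05. Cdh23 lies below 0 in all 4 classes, Cdh6 is filled in SGC-like nuclei at -1.08, and Pcdh11x is filled above 0 in SGC-like nuclei at 0.86.

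Of the 12 catenins and actin links, 1 was higher (beside 10.4% of all genes) and 3 lower (beside 10.7%) with age in SGC-like nuclei, among them Ctnna3 at 650.5, 262 and 302 CPM (log2 fold change -1.40 ± 0.12, adjusted p = 4.61e-27) and Ctnnd2 (-0.69), with Jup (plakoglobin) higher (0.57). With DESeq2 2 of these 4 calls remained, Ctnna3 and Ctnnd2, and 0 did with free RNA subtracted. Of the 13 tested cadherin-repeat genes, 4 were higher, Ret (1.07), a receptor of glial cell line-derived neurotrophic factors, Clstn3 (0.93), Clstn2 (0.67) and Clstn1 (0.54), and Celsr2 was lower (-0.42). Of these 5 calls, 1 (Ret) remained under DESeq2 and with free RNA subtracted. Neuron markers summed to 1110, 2133 and 1782 CPM in SGC-like nuclei, and their part in these rises was not tested. In MSC-like nuclei 0 catenins were higher (beside 2.65%) and 2 lower (beside 4.75%), Ctnnd2 at 415, 122 and 77.2 CPM (log2 fold change -2.09 ± 0.18, adjusted p = 2.55e-07) and Ctnna2 (-0.85), of which DESeq2 kept Ctnnd2. In NMSC-like nuclei Ctnna3 rose instead, from 213 CPM to 470 and 477 CPM (log2 fold change 1.03 ± 0.26, adjusted p = 0.00194 by edgeR), while Ctnnd2 (-1.13) and Ctnnal1 (-0.84) fell (1 of 12 higher beside 3.19% of all genes and 2 lower beside 4.12%). With free RNA subtracted Ctnna3 and Ctnnal1 kept their calls, and DESeq2 kept 0 of the 3. In myeloid-like nuclei Fat3, an atypical cadherin, rose from 70.0 CPM to 731 and 838 CPM (log2 fold change 3.54 ± 0.25, adjusted p = 5.4e-06 by edgeR), 1 of 7 cadherin-repeat genes tested there (beside 4.34% of all genes higher), and kept its call under DESeq2, with free RNA subtracted and with all classes in 1 fit. Ctnna3 (-2.02) and Ctnnd2 (-1.50) fell there (2 of 12 catenins, beside 3.64% of all genes lower), of which DESeq2 kept 1 and free RNA subtraction 1, Ctnna3 in both. With all classes in 1 fit 0 of the 4 catenin calls in SGC-like, 0 of the 2 in MSC-like, 0 of the 3 in NMSC-like and 0 of the 2 in myeloid-like nuclei remained. Ctnnd2 was highest in SGC-like nuclei in every library. SGC markers fell from 485 CPM to 317 and 282 CPM in MSC-like and from 1036 CPM to 854 and 713 CPM in NMSC-like nuclei. In myeloid-like nuclei they fell from 490 CPM to 168 and 105 CPM. The part of these markers in the falls of Ctnnd2 was not tested.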

How the data were processed

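Nuclear RNA of L3 to L5 DRG was sequenced by the authors with PIP-seq, a droplet method in which template particles capture single nuclei, and a 3′ kit that counts transcripts by UMI. The deposited files hold, for each gene and barcode, raw counts of UMIs that the authors made with Pipseeker and did not normalize, and the submitters' processing notes name the build mm10. Barcodes with more than 1000 genes were kept (53.8%, 58.4% and 54.5% of the UMIs), and libraries shared at most 1 kept barcode. The median nucleus held 3269, 4317.5 and 4900 UMIs. No doublet caller was run, and doublets are not shown to have been removed.

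Seurat 5.3.0 (R 4.3.3) was used for SCTransform, RPCA integration of the age groups (30 components) and clustering (resolution 0.8) on 2977 variable genes without the members. A marker counted for a cluster when it was in at least 10% of nuclei and reached 25% of the highest cluster, and a name needed 3 markers, a rule set after the clusters had been seen. A cluster high in mitochondrial RNA (260, 255 and 126 nuclei) was left out, and neuron-like clusters low in Malat1 (878, 1011 and 383 nuclei) were left out of the subtypes. Nuclei are not replicates, so counts were summed per class and library, where every library gave a class at least 20 nuclei, and tested with edgeR 4.0.16 (TMM scaling, filterByExpr, quasi-likelihood, Benjamini-Hochberg over all genes, threshold 0.05), with the library as a block between classes. Scripts were tested on simulated data. Alternatives were DESeq2 1.42.0, RLE size factors, no filter on low counts, nuclei with over 2000 genes, gates on markers in place of clusters, subtraction of free RNA (barcodes with at most 100 UMIs) at the highest share that markers of other classes allow, low-Malat1 clusters left out or kept, all classes in 1 fit, age within neuron subtypes, and leaving out each library. Cluster sums of the protocadherins and classes of 3 or more nuclei were added after the data were seen. Gene positions are those of GENCODE M21, promoters those of RefSeq, both on GRCm38. Tables were joined with Python 3.11.15, pandas 2.3.3 and numpy 2.4.6.

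Members, gene lists and tests were chosen with earlier results of these data known. Named were, per class and subtype, up to 5 members with the largest log2 fold change among those called higher and above the mean of the others in all 3 libraries, by age all called members or, above 10, the 5 largest changes each way, and a list of unclustered members whatever their values. Low members and other values outside this rule (Pcdh12, Pcdh18 in mural-like nuclei, Pcdhb4 to Pcdhb9, Pcdhb22) were chosen after their values were seen. Some genes that led the cycling-like cluster are not reported here.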

Additional observations from a re-analysis of the deposited data

Results flagged for a closer look

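Age effects that differed between classes were tested as an interaction of class and age in edgeR on sums per class and library. SGC-like minus MSC-like gave 13 of the members an adjusted p under 0.05, beside 9.66% of all genes, and SGC-like minus neuron-like gave 7, beside 4.39%. The differences below are on the log2 scale, aged against adult in SGC-like nuclei minus the same in the other class. Each rests on 1 adult library that both classes share.

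Members whose age effect was higher in SGC-like than in MSC-like nuclei were Pcdha12 (2.79), Cdh8 (1.61), Cdh18 (1.54), Pcdh11x (1.30), Cdh20 (1.00), Cdh10 (0.94), Pcdhac2 (0.89), Cdh11 (0.81) and Pcdh7 (0.71). Those whose effect was lower were Cdh19 (-0.79), Cdh6 (-0.78), Cdh1 (-0.59) and Cdh23 (-0.32). Cdh8 rests on aged replicate 2, at 0.82 without it and 2.86 without aged replicate 1. Cdh20, for example, was at 498, 491 and 462 CPM in SGC-like nuclei and fell in MSC-like nuclei from 66.6 CPM to 29.4 and 28.5 CPM. With DESeq2 or with free RNA subtracted, 0 of these 13 passed the threshold, whereas 13 and 12 kept their direction, Pcdh11x at 1.32 and 1.31 and Cdh6 at -0.69 and -0.72. After subtraction Cdh8 had 0 UMIs in the adult SGC-like library and Cdh18 had 0 in every MSC-like library, so their directions there are no result.

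Against neuron-like nuclei, the age effect in SGC-like nuclei was higher for Pcdh11x (1.31), Cdh20 (0.93), Pcdha12 (0.83), Cdh10 (0.78), Cdh23 (0.70) and Pcdhac2 (0.68), and lower for Cdh6 (-0.64). Pcdh11x rose in aged SGC-like nuclei, from 40.4 CPM to 83.6 and 83.3 CPM, and was at 48.0, 41.7 and 38.1 CPM in neuron-like nuclei. With DESeq2 1 of these 7 passed the threshold, and with free RNA subtracted 0 did, and all 7 kept their direction in both (Pcdh11x at 1.30 and 1.35).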

How the results depend on the processing

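Members higher in at least 1 class numbered 53, with 85 under no filter on low counts, 29 with clustered protocadherins summed (fewer features), and 50 to 56 leaving out a library. In subtypes they numbered 69, 31 with the clusters summed and 56 to 58 leaving out a library. Except for age within neuron subtypes, the share of all genes called under an alternative is not given in this section. Counts that moved therefore say nothing of the members in particular. Of the values named for single members, 1070 of the class alternatives kept direction and call, 93 lost the call and 6 reversed, 1598, 89 and 4 of the subtype alternatives, and 347, 110 and 7 of the age alternatives. Of the 347, 46 are values without aged replicate 1 and 45 without aged replicate 2. These have no test, so they kept a direction and not a call. With marker gates in place of clusters the class values reversed for Cdh2 (0.52) and Pcdh9 (0.68) in cycling-like, Pcdh19 in endothelial-like (-0.34), Cdh6 in lymphocyte-like (-0.091), Cdh12 in myeloid-like (0.82) and Pcdh11x in neuron-like nuclei (-0.31), and the subtype values for Pcdh7 in SST-like (0.27) and for Cdh10 (-0.32), Cdh11 (-0.070) and Pcdh7 (0.89) in TRPM8-like nuclei. The cause was not tested.

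Counts of members called by age moved more, again with no share of all genes beside them. By DESeq2 they were 3 in MSC-like (9 by edgeR), 1 in NMSC-like (6), 4 in SGC-like (24), 0 in endothelial-like (5), 0 in fibroblast-like (6), 0 in myeloid-like (2) and 5 in neuron-like nuclei (22). With all classes in 1 fit they were 2 in MSC-like, 2 in NMSC-like, 3 in SGC-like, 1 in endothelial-like, 2 in fibroblast-like, 2 in lymphocyte-like, 1 in myeloid-like and 4 in neuron-like nuclei. With marker gates they were 3 in NMSC-like, 8 in SGC-like, 9 in endothelial-like, 1 in lymphocyte-like and 16 in myeloid-like nuclei. With free RNA subtracted they were 1 in SGC-like, 5 in lymphocyte-like, 0 in myeloid-like and 10 in neuron-like nuclei. With over 2000 genes per nucleus they were 10 in SGC-like and 1 in lymphocyte-like nuclei, and with the clusters summed 14 in SGC-like and 6 in neuron-like nuclei. Lymphocyte-like nuclei had 2 with RLE size factors and 3 with no filter.

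Within neuron subtypes, 23 of 81 members were called in NP-like (beside 7.33% of all genes higher and 10.4% lower), 5 of 78 in Chrna7-led (0.403% and 3.22%), 11 of 74 in NF-like Nxph1 (3.21% and 6.71%), 0 of 61 in NF-like Skor2 (0% and 0.118%), 7 of 67 in NF-like Zfp804b (0.54% and 3.68%), 4 of 56 in NP-like Mrgpra3 (0.977% and 3.02%), 11 of 81 in PEP-like (1.37% and 4.91%), 9 of 42 in SST-like (0.215% and 2.25%), 5 of 66 in TH-like (0.516% and 1.87%) and 2 of 63 in TRPM8-like nuclei (0.0161% and 0.331%). In NF-like Skor2 nuclei 10 members were at an unadjusted p under 0.05 by edgeR, beside 743 of all 11888 genes tested. Differences between SGC-like and MSC-like age effects (13) fell to 0 with DESeq2, 5 over 2000 genes, 4 with gates and 0 with free RNA subtracted, and those between SGC-like and neuron-like (7) to 1 with DESeq2, 3 with RLE, 4 over 2000 genes, 4 with gates (3 of the 7 and 1 other) and 3 with free RNA subtracted (none of the 7), with 12 when low-Malat1 clusters were left out.

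With free RNA subtracted Cdh13 had 0 UMIs left in the adult library, so the fitted age differences of 7.39 in MSC-like, 6.13 in NMSC-like and 9.25 in SGC-like nuclei are set by an emptied group and are no estimates. With gates it reversed for Cdh19 in NMSC-like (0.076), Cdh8 in SGC-like (-0.32) and Cdh20 in fibroblast-like nuclei (0.17), and without aged replicate 2 for Cdh8 in SGC-like nuclei (-0.078, with 1.56 without aged replicate 1). Leaving out an aged library gives 1 library against 1, a value with no test: 23 of 24 members called in SGC-like nuclei kept their direction, and all those called in the other classes did. No paired analysis was possible because the age groups share only the replicate number 1. Members of few UMIs, among them most single clustered protocadherins, are limited by depth, above all in the classes of few nuclei.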
